A study of Mus musculus with 8 samples.

Results

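The integrin subunits and the core proteins of focal adhesions were followed in myofibroblastic hepatic stellate cells after inhibition of O-GlcNAc transferase (OGT), which attaches the sugar O-GlcNAc to proteins inside the cell. Members were the genes named as integrin alpha or beta chains, together with a hand-made list of focal adhesion proteins. This gave 45 genes of the 40840 in the tables, namely 26 integrin subunits (18 alpha and 8 beta) and 19 focal adhesion proteins. RNA-seq was performed on primary stellate cells of wild-type male mice (C57BL/6J, aged 15 to 18 weeks, in both groups), which were sorted from the liver and cultured on plastic for 7 days in medium with serum (pMF-HSCs). Cultures then received the solvent DMSO (control, n = 4) or the OGT inhibitor OSMI-1 at 50 µM (OGTi, n = 4) for 24 h, and libraries with the same replicate number formed a pair. The comparison asks which genes of the adhesion machinery change their mRNA level when O-GlcNAcylation is blocked.

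Integrins are receptors made of 1 alpha and 1 beta chain that hold cells to the extracellular matrix. Inside the cell, talin and kindlin bind the beta chain and switch the receptor on, while vinculin, the ILK-PINCH-parvin complex, tensins and LIM-domain proteins link it to actin, and FAK, p130Cas and paxillin pass on the signal. Stellate cells that become myofibroblasts build large focal adhesions, through which they pull on collagen, and some of their integrins release active TGF-β from its latent complex.

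In OGTi, 12 of the 43 members that could be tested were lower and 0 were higher. The 12 were the integrin chains Itgb6, Itga3, Itga4, Itga9 and Itgb2, and the focal adhesion genes Tns1, Tgfb1i1, Fermt2, Bcar1, Ilk, Ptk2 and Tln1, with log2 fold changes from -3.32 (Itgb6) to -0.74 (Tln1). Calls were made with edgeR's quasi-likelihood test, blocked by replicate, at a Benjamini-Hochberg adjusted p of at most 0.05 over all genes tested. Over all 19963 genes tested, 10.2% were called lower and 8.13% higher, against 12 and 0 of the 43 members. Most members are abundant, and abundant genes were called more often. Of the 33 members with a mean of at least 100 scaled counts (counts brought to a common library size), 11 were called lower, where 15.0% of the 10717 genes at that level were lower and 9.21% were higher. At an unadjusted p under 0.05, 17 members were lower and 1 (Itga7) was higher. The share of all genes at that threshold was not taken, so these counts have no background to be read against. DESeq2 called Itga7 higher.

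The log2 fold change was below 0 for 35 of the 43 tested members, with a median of -0.51, against 0.01 over all genes tested. The member median was -0.32 without replicate 1 and -0.30 with the gene length trend removed, against 0.01 and 0.09 over all genes in those fits. Among the 33 members at 100 scaled counts or more the median was -0.59, against -0.08 over all genes at that level. A lower value in OGTi in each of the 4 pairs was seen for 20 of the 43, and a higher value in each of the 4 pairs for 0, against 21.5% and 19.4% of all genes tested. At 100 scaled counts or more it was 18 of 33 members that were lower in each pair, against 28.4% of all genes at that level. Scaled counts did not overlap between the groups for 12 members, where 23.5% of all genes tested had groups that did not overlap. Those 12 were the called genes other than Itga3, with Tln2 in addition. At 100 scaled counts or more, groups did not overlap for 11 of 33 members, against 2971 of the 10717 genes at that level. In bulk RNA, fewer cells of a type and less RNA per cell cannot be told apart.

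**Figure D1:**
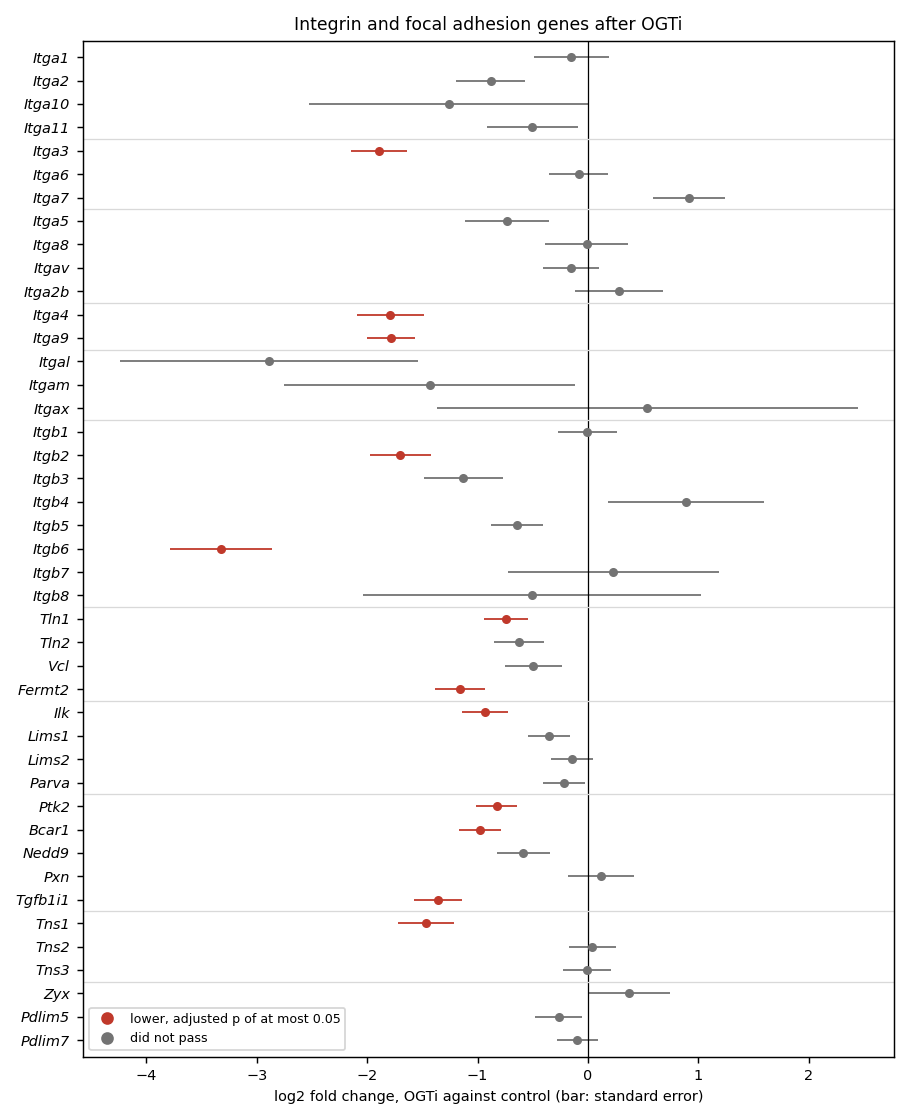
Log2 fold change of OGTi over control for each tested member (points) with its standard error (bars), from edgeR's quasi-likelihood test with replicates as a block. The 12 members called lower span -3.32 to -0.74, and no member was called higher.

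The libraries held 30068876 to 37372420 expected counts. In 7 libraries the number of detected genes was 19035 to 20293, whereas OGTi replicate 4 had 23746. Among genes with a mean of at least 100 scaled counts, OGTi replicate 1 was more than 4-fold below the lowest other OGTi library for 177 genes and control replicate 4 more than 4-fold below the lowest other control for 206 genes, while each of the other libraries was so for 0 to 14 genes. Stellate cell and myofibroblast markers (12 genes, summed TPM 7975 to 16180 in control and 6737 to 16940 in OGTi) were present in every library, although Lrat and Pdgfrb, 2 of the 12, were lower in OGTi. Hepatocyte markers summed to at most 0.83 TPM and mesothelial markers to at most 1.62. Endothelial markers summed to 12.8 to 45.9 TPM in control and 24.4 to 32.4 in OGTi, with Lyve1 and Tek, 2 of 8, called lower. Macrophage and leukocyte markers summed to 68.1 to 223.2 TPM in control and 103.0 to 264.3 in OGTi, with 1 of 10 (Cd68) called higher. Platelet markers summed to 65.8 to 111.3 TPM in control and 32.3 to 89.2 in OGTi, with 1 of 5 called, Gp6, which was higher in OGTi (24.6 ± 11.6 scaled counts against 3.03 ± 1.66, SD, n = 4). The part of these other cells in the member results was not tested.

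The repertoire of chains was first described in TPM, a level per transcript length that can be set side by side between genes. Itgb1, the beta chain shared by most matrix receptors, made up 81.2% ± 6.12 (SD, n = 4) of the summed beta chain TPM in control and 87.8% ± 6.26 (SD, n = 4) in OGTi. Itga5, which pairs with it in the fibronectin receptor, made up 55.0% ± 2.07 (SD, n = 4) of the summed alpha chain TPM in control and 52.9% ± 11.5 (SD, n = 4) in OGTi. Next in control came Itga1 (39.8 TPM ± 12.9), Itga3 (27.1 ± 9.69), Itga9 (20.8 ± 4.28) and Itgav (14.8 ± 1.32, SD, n = 4 each). Itga3 and Itga1 overlapped within their SD, as did Itga9 and Itga3. In OGTi, Itga1 (33.8 ± 21.2) and Itgav (11.3 ± 4.02) stood above Itga3 (6.39 ± 4.64) and Itga9 (4.75 ± 0.433).

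Summed alpha chain TPM was 244.5, 229.2, 308.6 and 299.0 in control replicates 1 to 4, and 41.2, 179.0, 210.9 and 198.3 in OGTi replicates 1 to 4. All 4 OGTi values lay below the control values, and OGTi replicate 1 lay far below the other 3. TPM is relative to all transcripts of a library, and these sums were not tested. Among all members, Pdlim7 (596.7 ± 42.2), Ilk (586.1 ± 67.3), Itgb1 (383.6 ± 194.9) and Fermt2 (302.6 ± 80.9, SD, n = 4 each) had the highest mean TPM in control. Pdlim7 and Ilk did not differ beyond their SD, and the order in OGTi was Pdlim7 (456.3 ± 103.7), Itgb1 (319.4 ± 165.1) and Ilk (246.8 ± 43.4).

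**Figure D2:**
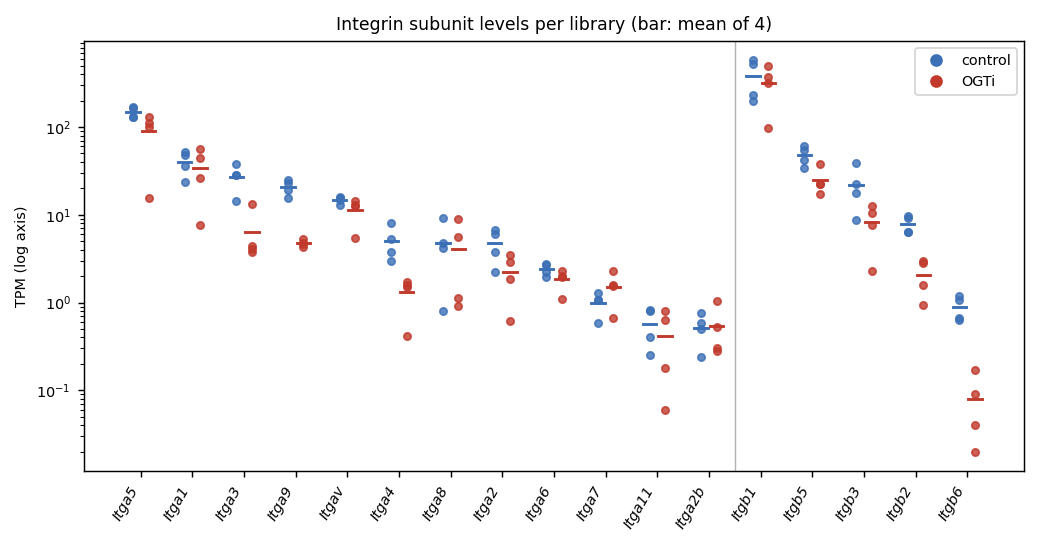
Level of the integrin chains in TPM on a log axis for each of the 8 libraries (points) by group. By group mean, Itgb1 and Itga5 stand highest in both groups, although Itga5 lies at 15.4 TPM in OGTi replicate 1, and Itgb6, Itgb2, Itga4, Itga9 and Itga3 are lower in OGTi.

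Among the alpha chains that bind collagen (Itga1, Itga2, Itga10 and Itga11), 0 of 4 were called, with 1 at an unadjusted p under 0.05 (Itga2) and 0 called by DESeq2. Itga1 had a log2 fold change of -0.15 ± 0.34 (SE, adjusted p = 0.810), with 2798 to 6052 scaled counts in control and 1330 to 8058 in OGTi. It was lower in pair 1 and higher in the other 3 pairs, and its log2 fold change turned to 0.32 without replicate 1. In every pair Itga2 was lower in OGTi, but its groups overlapped and its log2 fold change of -0.88 ± 0.31 was not called (adjusted p = 0.0808). Itga11 ranged from 8.19 to 97.6 scaled counts, with a log2 fold change of -0.50 ± 0.41 (adjusted p = 0.447). Itga10 had at most 8.79 scaled counts, with one of -1.26 ± 1.26 (adjusted p = 0.547).

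Itga3, the alpha chain of a laminin receptor, is encoded at chr11:94935296-94967682 on the minus strand (GRCm39). Its scaled counts were 2657, 3586, 2566 and 1324 in control replicates 1 to 4 and 602.2, 1360, 445.8 and 461.8 in OGTi replicates 1 to 4. Every OGTi library lay below the control of its pair, while control replicate 4 fell just under OGTi replicate 2, so the groups overlapped. Itga3 had a log2 fold change of -1.89 ± 0.25 (SE, 3.72-fold lower, adjusted p = 0.00114). The other laminin-binding chains were not called. Itga6 had a log2 fold change of -0.09 ± 0.26 (adjusted p = 0.868). Itga7, a chain best known from muscle, had 99.1, 53.6, 93.0 and 112.7 scaled counts in control and 94.2, 154.1, 183.2 and 260.7 in OGTi. It was higher in 3 of 4 pairs, with a log2 fold change of 0.91 ± 0.32 (adjusted p = 0.0778). It was called higher with DESeq2 (adjusted p = 0.0323), with upper-quartile scaling (0.0366), without a count filter (0.0444), with the trend over gene length removed (0.0141) and without replicate 1 (0.0258).

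The chains that bind the RGD motif of fibronectin and latent TGF-β (Itga5, Itga8, Itgav and Itga2b) gave 0 calls of 4, 0 also at an unadjusted p under 0.05 and 0 with DESeq2. Itga5 had 11240, 11330, 13988 and 14598 scaled counts in control and 1944, 10402, 14111 and 10642 in OGTi. OGTi replicate 1 stood alone, and the other 3 OGTi libraries lay near the controls. This gave a log2 fold change of -0.73 ± 0.38 (SE, adjusted p = 0.220), and -0.19 without replicate 1. A call appeared only when no count filter was used (adjusted p = 0.0428). Itgav, the partner of several beta chains on fibroblasts, had a log2 fold change of -0.15 ± 0.25 (adjusted p = 0.737), with 2169 to 2665 scaled counts in control. Of its OGTi libraries, replicate 1 held 1300 and the others 2533 to 2707. Itga8, a chain of stellate and smooth muscle cells, ranged from 91.5 to 1016 in control and from 141.8 to 1210 in OGTi. Its spread within groups was far larger than its log2 fold change of -0.01 ± 0.38. Itga2b, the platelet chain, stayed at 15.8 to 82.7 scaled counts.

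Both members of the alpha4 and alpha9 pair, which bind VCAM1 and fibronectin rather than the RGD motif, were lower. Itga9 (chr9:118435722-118730072, plus strand) had 2333, 1873, 2928 and 2759 scaled counts in control and 743.5, 698.0, 715.1 and 674.3 in OGTi. The OGTi libraries lay within a narrow band, well below the lowest control. Its log2 fold change was -1.79 ± 0.22 (SE, 3.45-fold lower, adjusted p = 0.000767), the smallest adjusted p among the members. Itga4 (chr2:79085660-79163467, plus strand) had 689.8, 532.9, 942.0 and 1411 scaled counts in control and 105.5, 270.3, 339.9 and 345.7 in OGTi. The groups did not overlap, and the log2 fold change was -1.79 ± 0.30 (SE, 3.46-fold lower, adjusted p = 0.00340). Vcam1, the cell-surface ligand of the alpha4 chain, fell by 2.57 on the log2 scale in the same libraries (± 0.23 SE, adjusted p = 0.000220).

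Itga4 was also the 1 member whose average transcript length changed without overlap. This length, an RSEM average over the isoforms of a gene weighted by their abundance, was 8704 to 8979 bases in control and 8241 to 8540 in OGTi. It was examined in the 28 members with at least 100 scaled counts whose length varied by over 1 base. Among all 7820 such genes, 8.34% did not overlap between groups, so 1 of 28 was no more than the share over all genes.

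The leukocyte alpha chains (Itgad, Itgae, Itgal, Itgam and Itgax) were nearly absent. Itgad and Itgae had a total under 10 counts over the 8 libraries and were not tested, and the other 3 reached at most 28.6 scaled counts (Itgal, control replicate 3). None was called by edgeR or DESeq2, and 0 had an unadjusted p under 0.05. Itgb2, the beta partner of these chains other than Itgae (chr10:77366086-77401542, plus strand), was nevertheless measured, with 335.7, 481.0, 487.1 and 325.7 scaled counts in control and 118.8, 159.7, 198.6 and 58.6 in OGTi. The highest OGTi library lay below the lowest control, and the log2 fold change was -1.70 ± 0.27 (SE, 3.25-fold lower, adjusted p = 0.00268). Per length, Itgb2 stood at 6.31 to 9.57 TPM in control and 0.93 to 3.00 in OGTi, whereas Itgad, Itgal, Itgam and Itgax summed to at most 0.68 TPM in control and 0.29 in OGTi. Ptprc, the pan-leukocyte marker CD45, had at most 14.4 scaled counts in any library. Of the 10 macrophage and leukocyte markers, 9 were tested. A log2 fold change below 0 was seen for 5 of them, and 1 (Cd68) was called higher. The part of leukocytes in the Itgb2 result was not tested.

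Among the beta chains, 2 of 8 were called, Itgb2 and Itgb6. Itgb6, which pairs with the alpha V chain in an epithelial receptor that activates latent TGF-β, had the largest fold change of all members. The gene lies at chr2:60428636-60553035 on the minus strand. Its scaled counts were 63.3, 112.6, 97.6 and 59.7 in control and 6.14, 8.93, 19.9 and 2.3 in OGTi. The groups were far apart, but the level was low, 0.885 TPM ± 0.276 in control and 0.08 ± 0.0668 in OGTi (SD, n = 4). The log2 fold change was -3.32 ± 0.47 (SE, 10.02-fold lower, adjusted p = 0.00141), and -0.79 on log2(TPM + 1) in limma, a scale that understates changes of low genes. Of 7 epithelial markers, 1 was called lower in OGTi, Krt19, which is also nearly the whole of their summed level (87.4 to 139.1 TPM in control and 46.8 to 81.2 in OGTi). Krt19 alone stood at 85.1 to 139.1 TPM in control and 46.5 to 72.9 in OGTi. Epcam and Cdh1 were low, with log2 fold changes of 2.18 and 2.33 that passed only without adjustment (adjusted p = 0.124 and 0.139). Krt7 and Cldn4 were not called and were highest in OGTi replicate 2 (153.0 and 69.2 scaled counts), and Krt5 and Krt14 were at 0 in every library. The part of epithelial cells in the Itgb6 result was not tested.

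Itgb1 had 19086, 47462, 41868 and 16203 scaled counts in control and 11749, 32938, 50845 and 31152 in OGTi. The libraries differed widely within both groups, and the log2 fold change was -0.00 ± 0.27 (SE, adjusted p = 0.994), with values from -0.33 to 0.27 over the 13 alternative settings. Itgb3 and Itgb5, which pair with the alpha V chain as vitronectin receptors, were lower in all 4 pairs without being called. For Itgb3, counts of 1008 to 4378 in control and 380.0 to 1748 in OGTi overlapped, and the log2 fold change was -1.13 ± 0.36 (adjusted p = 0.0537), or -0.71 without replicate 1. It was called lower in 5 of the 13 alternative settings, 1 of them DESeq2 (adjusted p = 0.0187). For Itgb5 the log2 fold change was -0.64 ± 0.24 (adjusted p = 0.0894), called in 4 of 13 settings. Itgb4, Itgb7 and Itgb8 had at most 72.6 scaled counts in any library and were not called.

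**Figure D3:**
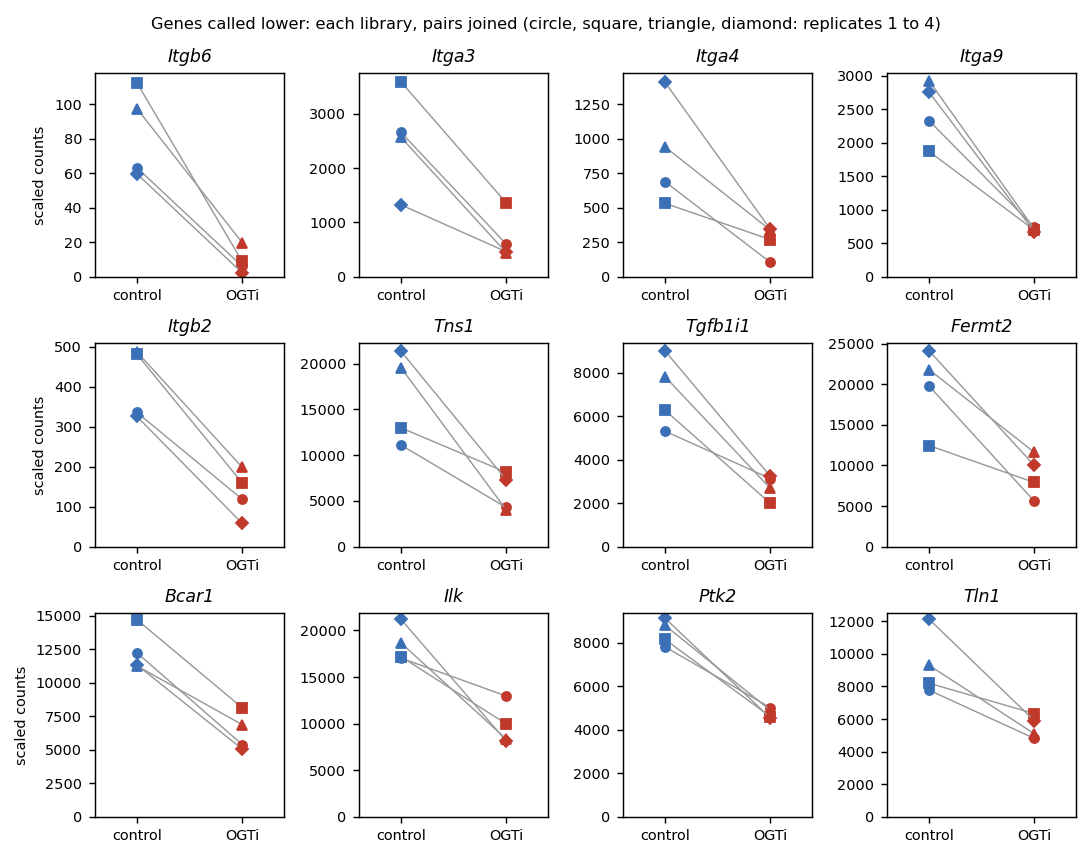
Scaled counts of the 12 members called lower, in control (4 libraries) and OGTi (4 libraries), with lines joining libraries of 1 replicate. Each line falls from control to OGTi, and only for Itga3 does a control library (replicate 4) lie below an OGTi library (replicate 2).

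Among the proteins that activate integrins and tie them to actin, Fermt2 and Tln1 were lower. Fermt2 encodes kindlin-2, which binds the beta chain tail beside talin (chr14:45696239-45767770, minus strand). It had 19784, 12457, 21803 and 24119 scaled counts in control and 5611, 7915, 11623 and 10000 in OGTi. Here the highest OGTi library (replicate 3) lay close under the lowest control (replicate 2), and in TPM the level went from 302.6 ± 80.9 to 110.0 ± 36.0 (SD, n = 4). Fermt2 had a log2 fold change of -1.16 ± 0.22 (SE, 2.24-fold lower, adjusted p = 0.00624).

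Tln1, talin-1 (chr4:43531513-43562691, minus strand), had 7775, 8198, 9301 and 12135 scaled counts in control and 4812, 6340, 5099 and 5901 in OGTi, without overlap. The log2 fold change was -0.74 ± 0.20 (SE, 1.67-fold lower, adjusted p = 0.0256). This was the smallest change among the called members, and the call was lost without replicate 3 (adjusted p = 0.128), without replicate 4 (0.105) and with upper-quartile scaling (0.0631). Its paralog Tln2 had 743.0, 858.3, 794.7 and 767.9 scaled counts in control and 578.6, 703.5, 422.6 and 399.7 in OGTi. These groups did not overlap either, but the log2 fold change of -0.62 ± 0.23 did not pass (adjusted p = 0.0898). Vcl, vinculin, had a log2 fold change of -0.50 ± 0.26 (adjusted p = 0.218), with groups that overlapped from 5582 to 11489. Its log2 ratios were -1.49, -0.06, -0.34 and -0.12 in pairs 1 to 4, and the log2 fold change was -0.17 without replicate 1.

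In the complex of ILK, PINCH and parvin, Ilk was called lower and the 3 partners were not. Ilk, integrin-linked kinase (chr7:105385782-105392182, plus strand), had 17039, 17200, 18672 and 21206 scaled counts in control and 12964, 9962, 8349 and 8137 in OGTi. All 4 OGTi libraries lay below the controls, and OGTi replicate 1 lay nearest to them. The log2 fold change was -0.93 ± 0.21 (SE, 1.91-fold lower, adjusted p = 0.0133), and the call was lost without replicate 3 (adjusted p = 0.0730) and without replicate 4 (0.0662). Lims1 (PINCH-1) had a log2 fold change of -0.35 ± 0.19 (adjusted p = 0.238), Lims2 (PINCH-2) -0.15 ± 0.19 (0.664) and Parva (alpha-parvin) -0.21 ± 0.19 (0.492). All 3 were called lower in both limma fits on TPM (adjusted p = 0.0234 to 0.0477), and whether Ilk differed from them was not tested.

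Of the signaling scaffolds, Ptk2, Bcar1 and Tgfb1i1 were lower, and Nedd9 and Pxn were not called. Ptk2, focal adhesion kinase (chr15:73076832-73295129, minus strand), had 7815, 8153, 8806 and 9134 scaled counts in control and 5020, 4609, 4897 and 4547 in OGTi. Both groups were tight and well separated, with a log2 fold change of -0.83 ± 0.19 (SE, 1.78-fold lower, adjusted p = 0.0121). The call was lost without replicate 3 (adjusted p = 0.0707), without replicate 4 (0.0536) and with the gene length trend removed (0.0622). Bcar1, the docking protein p130Cas that FAK binds (chr8:112434491-112470521, minus strand), had 12244, 14718, 11269 and 11345 scaled counts in control and 5394, 8142, 6879 and 5057 in OGTi. The groups did not overlap, and the log2 fold change was -0.98 ± 0.19 (SE, 1.97-fold lower, adjusted p = 0.00610).

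Tgfb1i1, the paxillin relative Hic-5 that is induced by TGF-β (chr7:127845984-127856541, plus strand), had 5315, 6280, 7822 and 9007 scaled counts in control and 3138, 1999, 2690 and 3245 in OGTi. Again the groups were separate, and the log2 fold change was -1.36 ± 0.22 (SE, 2.56-fold lower, adjusted p = 0.00260). Pxn, paxillin itself, had 752.3 to 1034 scaled counts in control and 399.4 to 1440 in OGTi, with a log2 fold change of 0.12 ± 0.30 (adjusted p = 0.834). It was higher in 3 of 4 pairs and lower in pair 1. Nedd9, a p130Cas relative, was lower in all 4 pairs by -0.59 ± 0.24 (adjusted p = 0.120).

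Of the tensins, which bridge the beta chain and actin in mature adhesions, Tns1 was lower. Tns1 (chr1:73949390-74163731, minus strand) had 11110, 12994, 19556 and 21359 scaled counts in control and 4291, 8125, 4043 and 7316 in OGTi. No OGTi library reached the lowest control, and the log2 fold change was -1.47 ± 0.26 (SE, 2.76-fold lower, adjusted p = 0.00399). Tns2 (0.04 ± 0.22, adjusted p = 0.926) and Tns3 (-0.01 ± 0.21, adjusted p = 0.984) gave log2 fold changes near 0.

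Of the zyxin and PDZ-LIM group, found on adhesions and stress fibers, 0 of 3 were called by edgeR or DESeq2, and 0 had an unadjusted p under 0.05. Zyx, zyxin, had 12597, 17552, 13555 and 3876 scaled counts in control and 12276, 11747, 15089 and 16361 in OGTi. Control replicate 4 stood apart from the other 7 libraries, and the log2 fold change of 0.37 ± 0.37 (adjusted p = 0.551) turned to -0.14 without that replicate. Pdlim5 had a log2 fold change of -0.27 ± 0.21 (adjusted p = 0.437). Pdlim7, the member with the highest TPM, had one of -0.10 ± 0.18 (adjusted p = 0.771), with 14994 to 17160 scaled counts in control and 13340 to 20429 in OGTi.

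The median log2 ratio of OGTi over control over the 33 members with at least 100 scaled counts was -0.87, -0.31, -0.34 and -0.46 in pairs 1 to 4, with 32, 26, 21 and 24 of them below 0. Over all 10717 genes at that level the medians were -0.13, -0.04, -0.04 and -0.14. The members were lowest in pair 1, whose OGTi library held the lowest of the 4 OGTi values for 17 of the 33 members, against 35.8% of all genes at that level. The 12 called members had a median log2 ratio of -1.43, -0.92, -1.38 and -1.50 in pairs 1 to 4 and were below 0 in each. Without replicate 1, all 12 calls were kept.

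**Figure D4:**
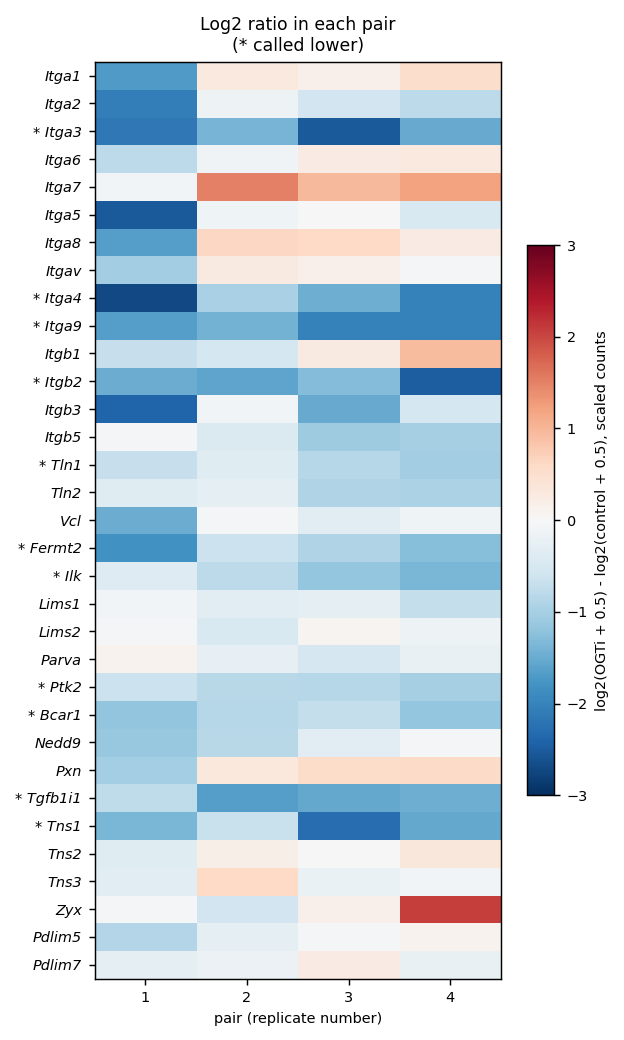
Log2 ratio of OGTi over control scaled counts within each of the 4 replicate pairs for the 33 members with a mean of at least 100 scaled counts. The member medians are -0.87, -0.31, -0.34 and -0.46, against -0.14 to -0.04 for all genes at that level.

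Sequences upstream of the transcription start were read from RefSeq (GRCm38.p6, mouse) for the 31 of 45 members found there, as the 250 bases before each listed start on the strand of the gene. They were searched on both strands for GGAATG (the core bound by TEAD factors), TGANTCA (AP-1) and the CArG box bound by serum response factor, which do not overlap in the sequences printed. Of 32851 windows of this length over all genes, 12.6% held the TEAD core, 6.75% the AP-1 site and 1.47% a CArG box. Counted by gene, as for the members, these shares were 14.4%, 7.82% and 1.62% of 27025 genes. The 9 called members found, with 13 windows, held 0 TEAD cores and 0 AP-1 sites, and 2 of them held a CArG box. Windows were counted as listed, and some, such as an Itgb6 window and possibly the single window of Itga9, precede a start inside the gene. Of the 22 members that were not called, 3 held the TEAD core (Itga10, Vcl and Itgb1), 2 the AP-1 site (Zyx and Itgax) and 1 a CArG box (Vcl). A match of letters describes the window only, and a missing match says only that these letters are not in it.

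Both CArG boxes of called members are shown, in capitals, with the plain window of Itga4, a called integrin chain with none of the motifs, for comparison. The Fermt2 window is chr14:45530066-45530315 (minus strand), with the box at bases -204 to -195 from the start. The first Itgb6 window is chr2:60673694-60673943 (minus strand), with the box at -50 to -41. It precedes a start inside the gene, downstream of the start that follows the second Itgb6 window (chr2:60722604-60722853), which has no match. The Itga4 window is chr2:79255176-79255425 (plus strand).
Fermt2: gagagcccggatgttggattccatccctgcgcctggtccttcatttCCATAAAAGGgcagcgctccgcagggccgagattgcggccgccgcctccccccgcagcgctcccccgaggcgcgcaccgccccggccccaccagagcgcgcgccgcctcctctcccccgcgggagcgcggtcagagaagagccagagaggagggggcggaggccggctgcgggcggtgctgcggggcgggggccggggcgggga
Itgb6, inner start: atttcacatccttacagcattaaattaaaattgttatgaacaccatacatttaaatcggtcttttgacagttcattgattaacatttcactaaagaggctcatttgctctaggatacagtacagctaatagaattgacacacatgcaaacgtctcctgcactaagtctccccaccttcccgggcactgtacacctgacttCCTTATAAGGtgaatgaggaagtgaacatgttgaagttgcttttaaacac
Itgb6, outer start: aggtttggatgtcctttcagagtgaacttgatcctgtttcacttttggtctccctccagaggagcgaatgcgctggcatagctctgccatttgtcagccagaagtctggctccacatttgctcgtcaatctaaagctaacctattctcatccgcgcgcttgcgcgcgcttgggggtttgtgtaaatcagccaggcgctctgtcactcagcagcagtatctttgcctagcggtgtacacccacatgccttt
Itga4: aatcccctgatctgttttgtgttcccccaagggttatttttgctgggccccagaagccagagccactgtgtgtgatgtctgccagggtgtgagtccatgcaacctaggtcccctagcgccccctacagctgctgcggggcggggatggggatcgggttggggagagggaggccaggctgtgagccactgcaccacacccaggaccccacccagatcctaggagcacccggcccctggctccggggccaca
The GC content of these windows was 76.0% for Fermt2, 38.0% and 52.0% for Itgb6, and 64.0% for Itga4. The median was 65.6% over the windows of called members, 60.8% over those of members not called, and 52.4% over all windows. Which start was used in these cells was not measured.

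A wider list of 68 adhesion genes, with further actin linkers, kinases and adaptors, held 13 lower and 4 higher genes in the same fit, with a median log2 fold change of -0.26. Over all genes tested, 10.2% were lower and 8.13% higher, with a median of 0.01. Of the 68, 60 had a mean of at least 100 scaled counts. At that level 15.0% of all genes were lower and 9.21% higher, with a median of -0.08. The lower count of the list was 8 without replicate 3, and its higher count was 8 with the gene length trend removed. Among the lower ones, Sorbs2, an adaptor that binds vinculin and actin regulators, held 2519 ± 927.4 scaled counts in control against 165.8 ± 146.6 in OGTi (SD, n = 4). Its log2 fold change was -4.17 ± 0.36 (SE, adjusted p = 0.000210). Its relative Sorbs3, vinexin, fell by 2.18 on the log2 scale. The intermediate filament protein Synm fell by 1.92, the LIM proteins Pdlim2 and Lpp by 1.71 and 1.59, and Ptk2b, the FAK relative PYK2, by 1.32. The other 7 lower genes had smaller fold changes. The higher genes were Fyn, a Src-family kinase (log2 fold change 1.67 ± 0.24, SE, adjusted p = 0.00166), Plaur, the urokinase receptor (1.33), the small GTPase Rap1b (1.31) and Calr (0.56), the chaperone calreticulin.

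Of 46 integrin ligands, 42 were tested, of which 8 were lower and 2 higher, where 10.2% of all genes tested were lower and 8.13% higher. Their median log2 fold change was -0.50, against 0.01 over all genes tested. Of the ligands, 36 had a mean of at least 100 scaled counts. At that level 15.0% of all genes were lower and 9.21% higher, with a median of -0.08. Without the replicate block the lower and higher counts of the ligands were 4 and 1. Without replicate 3 they were 4 and 1, and without replicate 4 they were 3 and 1. Scaling by library totals gave 15 lower. Vcam1 was named above. The laminin chains Lamb1 and Lamc1, found in ligands of the receptor that holds Itga3, fell by 1.73 and 1.10 on the log2 scale, and Nid2, a laminin-binding basement membrane protein, by 0.95. Ltbp1, which stores latent TGF-β in the matrix, and Tgfb3 each fell by 1.55. The other 2 lower genes had smaller fold changes. Ccn1, a matricellular integrin ligand, rose from 85563 ± 16900 to 241900 ± 105075 scaled counts (SD, n = 4). Its log2 fold change was 1.39 ± 0.21 (SE, adjusted p = 0.00185). Tgfbi, a secreted RGD protein, had a log2 fold change of 1.17 ± 0.36 (adjusted p = 0.0455).

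**Figure D5:**
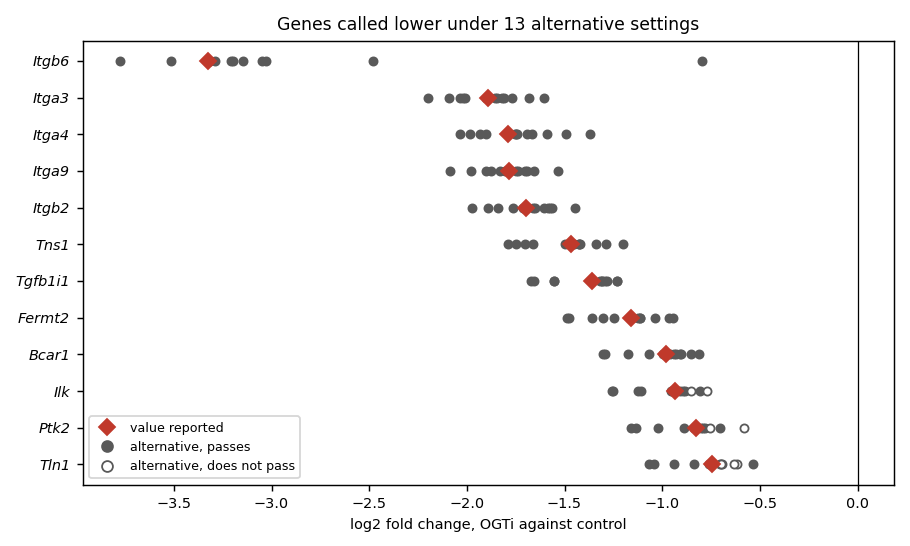
Log2 fold change of each of the 12 called members under the reported fit and the 13 alternative settings, with filled marks where the adjusted p was at most 0.05. All values lie below 0, and the calls lost are those of Tln1, Ptk2 and Ilk.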

How the data were processed

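RNA from 4 control and 4 OGTi cultures was sequenced as stranded, paired-end poly(A) libraries. The authors aligned reads with Bowtie2 2.3.5.1 to mm39 and quantified them with RSEM 1.3.1. The deposited tables give, per library, expected counts (estimated reads per gene, not normalized), TPM and an average transcript length. The methods name GENCODE, whereas the deposited transcript identifiers are RefSeq ones. Between 0.251% and 0.978% of detected genes had fractional counts, so reads shared by near-identical copies could not be followed. A further deposited table holds the authors' own comparison (normalized counts, fold changes and p-values) and was not used.

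Expected counts were rounded and tested with edgeR 4.0.16 (R 4.3.3). Genes whose 8 libraries summed to 10 counts or more (19963 of 40840) were kept, with TMM scaling, glmQLFit and glmQLFTest, the replicate number as a block, two-sided p, and Benjamini-Hochberg adjustment over all genes tested. The SE is the log2 fold change divided by the root of F. Scaled counts are counts over the TMM library size, multiplied by the mean of that size. Pair ratios were taken on scaled counts plus 0.5. The biological coefficient of variation was 0.342. Gene coordinates are from GENCODE (GRCm39). The script was tested on simulated counts with less spread between replicates than in these libraries, so that test does not show how many changes are found here.

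The study's methods pair control and treated samples of one replicate. Same-numbered libraries deviated together from their group means across genes (r = 0.160, 0.224, 0.105 and 0.318 for replicates 1 to 4, against -0.312 to 0.208 for other combinations; genes are not independent replicates). The study describes biological replicates. With the replicate as a block, p-values weigh the difference between OGTi and control against its spread over the 4 pairs. At 30068876 to 37372420 counts per library, that spread, rather than counting error, sets the precision for most members.

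The members and the lists were chosen with earlier results of these data known. All members are accounted for. Of the other lists, the genes named are those called, at most 6 in each direction by fold change, with a mean of at least 50 scaled counts in 1 group, and the rest are counted. Cell type markers are named, called or not, where their level stands beside a member's result. Promoters printed are of called members at that level. Alternatives were the fit without the block, upper-quartile and library-total scaling, DESeq2 1.42.0, no filter, filterByExpr, limma 3.58.1 on log2(TPM + 1) and log2(TPM + 0.1), removal of the trend over gene length (lowess span 0.3), and leaving out each replicate.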

Additional observations from a re-analysis of the deposited data

Results flagged for a closer look

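In the 4 OGTi libraries, Itgav had 1299.6 scaled counts in replicate 1 and 2533 to 2707 in the other 3. The gap between the lowest library and its neighbour took up 0.876 of the range of the group, above Dixon's 95% critical value for 4 samples. Over 70 groups of 4 libraries examined, chance flags about 3.5, and 1 was flagged.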

How the results depend on the processing

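Of the 12 members called lower, all 12 were also called without the replicate block (12 lower, 0 higher), with library totals, DESeq2, no filter, filterByExpr and both limma fits on TPM, and without replicate 1 or replicate 2. Tln1 was lost with upper-quartile scaling, Ptk2 with the length trend removed, and Ilk, Ptk2 and Tln1 without replicate 3 and without replicate 4. The number of members called lower was 9 to 13 when 1 replicate was left out, and no called member changed sign. It was 17 with library totals (with Itga2, Itgb3, Itgb5, Nedd9 and Tln2 added), 17 in each limma fit on TPM (Itgb5, Lims1, Lims2, Nedd9 and Parva) and 15 with no filter (Itga2, Itga5 and Itgb3). Members called higher numbered 1 (Itga7) with upper-quartile scaling, DESeq2, no filter and the length trend removed, and 0 to 1 when 1 replicate was left out. Signs changed in 0 to 8 uncalled members per setting, Itgb1 among them. The other adhesion genes gave 8 higher with the length trend removed and 8 to 12 lower when 1 replicate was left out. The integrin ligands gave 1 higher and 4 lower without the replicate block, 1 higher and 15 lower with library totals, 13 lower with no filter, 1 higher on TPM + 1, and 1 higher and 13 lower on TPM + 0.1. With 1 replicate left out they gave 1 to 2 higher and 3 to 8 lower. The cause of these differences was not tested. The scaling moved the all-gene median of the log2 fold change from 0.01 (TMM) to 0.13 (upper quartile) and -0.19 (library totals), and the share of higher among called genes from 44.3% to 54.2% and 30.1%. That share was 51.9% with the length trend removed and 25.7% and 26.3% on TPM + 1 and TPM + 0.1. Median log2 fold changes of the members were -0.51 with TMM, -0.41 with the upper quartile, -0.70 with library totals, -0.30 with the length trend removed and -0.32 without replicate 1. Over all 13 alternatives they ran from -0.70 to -0.30. Of the 10 tested members with a mean under 100 scaled counts, 1 (Itgb6) was called, and a limit by depth was not tested.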
